A study of Homo sapiens with 12 samples.

Results

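Prostate surface antigens and secreted markers were examined in LNCaP cells depleted of BRG1, through 7 genes chosen by name for their use as prostate antigens or secretory products. They are *FOLH1*, *STEAP1*, *STEAP2*, *STEAP4* and *TRPM8*, whose products sit in membranes, and *ACP3* and *MSMB*, whose products are secreted. They are 7 of 63568 genes in the table, and 6 of them were among the 16337 genes with at least 1 TPM (a length-scaled share of a library's transcripts) in at least 2 libraries, which were tested. *STEAP4* did not pass this filter.

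LNCaP is an androgen-responsive line derived from a lymph node metastasis of prostate cancer, and every library came from this 1 line without a reported genetic change. The cells received a non-targeting siRNA pool (si-NT) or 1 of 2 siRNAs that target *SMARCA4*, the gene for the chromatin remodeller BRG1. RNA was collected at 72 h, or at 144 h after the cells had been split and transfected again at 72 h. There were 2 libraries for each siRNA and time point, giving 2 si-NT and 4 BRG1 depleted libraries at each time and 12 in all. The siRNAs are called 2 and 3 here as the deposited table numbers them, and both depleted the same protein, so the main comparisons pool them. Nothing in the labels says that the replicates were separate cultures, so the p-values measure the spread between libraries, which may be technical.

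Luminal cells line the prostate gland and make its secretions, many of them under control of the androgen receptor. Proteins on the surface of these cells, above all the one encoded by *FOLH1*, are used as targets for imaging and for therapy of prostate cancer, while acid phosphatase and beta-microseminoprotein are released into the seminal fluid. The STEAP proteins are membrane reductases or their relatives, linked to the handling of iron and copper, and TRPM8 is a cation channel opened by cold and menthol.

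*SMARCA4* itself was 85.2 ± 16.7 TPM (SD, n = 2) in si-NT and 19.3 ± 1.75 (SD, n = 4) in BRG1 depleted libraries at 72 h, and 100.5 ± 8.55 (SD, n = 2) against 15.2 ± 2.63 (SD, n = 4) at 144 h. Every library thus bore out its label as si-NT or depleted, though this level cannot show the time or which *SMARCA4* siRNA was used. A library held 14706 to 15355 genes at 1 TPM or more, and the ERCC spike-ins, RNAs of known amount added to each sample, took 0.805% to 1.97% of the total. All 7 luminal markers examined were detected, with a summed level of 1169 to 1266 TPM in si-NT and 1229 to 1523 TPM in BRG1 depleted libraries. Among markers of other cells, 1 of 5 basal, 2 of 6 stromal, 1 of 5 neuroendocrine and 0 of 4 leukocyte genes reached 1 TPM in any library. The part of these marker levels in the results was not tested.

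The genes fell into an abundant and a scarce set. In the 4 si-NT libraries *FOLH1* averaged 483 TPM (SD 75.2) and ranked 244 among the 16337 tested genes, *STEAP1* ranked 703 and *STEAP2* ranked 1277. *ACP3* ranked 10200 and *TRPM8* ranked 11557, and neither passed 10 TPM in an si-NT library. On this length-scaled level *FOLH1* exceeded *STEAP1* and *STEAP1* exceeded *STEAP2* in each of the 12 libraries. The ranges of *ACP3* and *TRPM8* overlapped over the 12 libraries, as did those of *TRPM8* and *MSMB*.

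**Figure D1:**
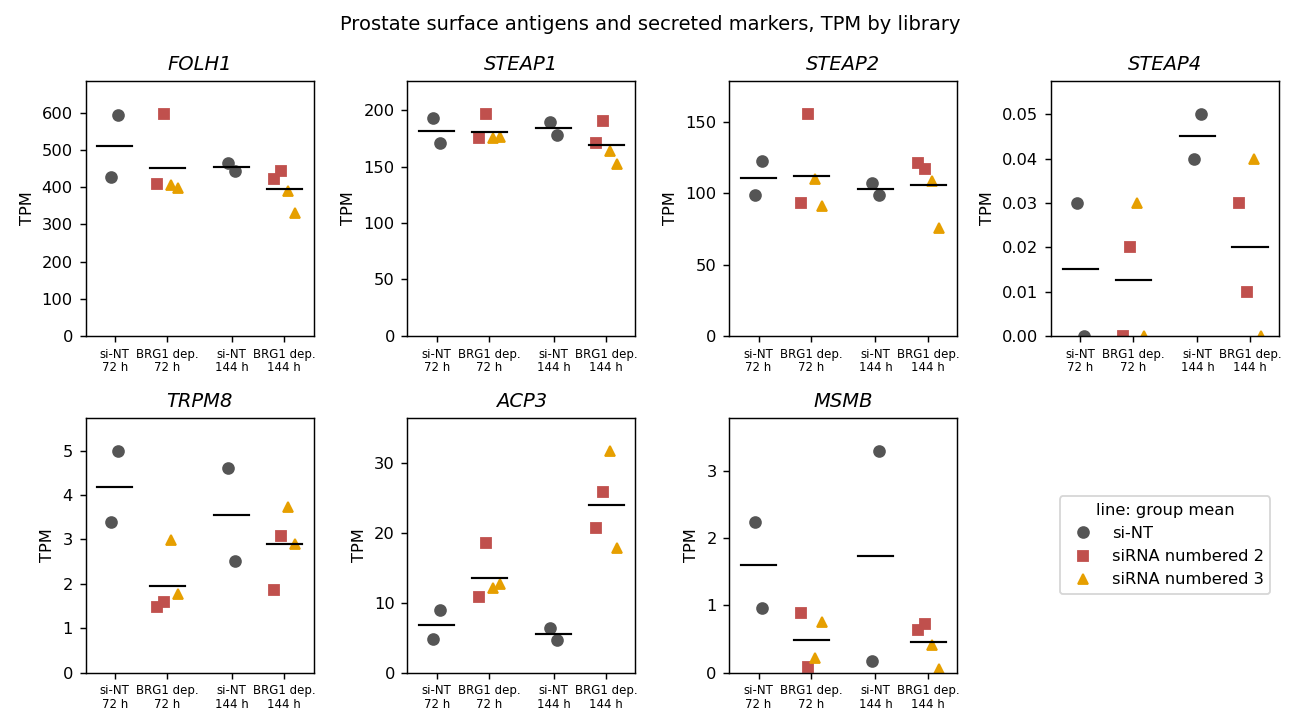
TPM of each gene (vertical axes from 0, 1 scale per panel) in the 12 libraries, by treatment and time on the horizontal axis. Points are libraries, marked by siRNA, and lines are group means. *ACP3* lies above every si-NT library at both times, whereas *STEAP1* and *STEAP2* overlap with si-NT, and *STEAP4* stays at or below 0.05 TPM.

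The promoters of 3 members are shown, that of *ACP3* poor in the dinucleotide CpG and those of *STEAP1* and *STEAP2* rich in it at the starts printed. They run from 250 bases before to 50 bases after the annotated start, were taken from RefSeq on GRCh38.p14, and are given 5′ to 3′ on the strand of the gene with each CpG dinucleotide in capitals. *ACP3* lies at chr3:132317157-132317456, *STEAP1* at chr7:90154219-90154518 and the first of 2 listed starts of *STEAP2* at chr7:90211490-90211789, all on the plus strand.
ACP3: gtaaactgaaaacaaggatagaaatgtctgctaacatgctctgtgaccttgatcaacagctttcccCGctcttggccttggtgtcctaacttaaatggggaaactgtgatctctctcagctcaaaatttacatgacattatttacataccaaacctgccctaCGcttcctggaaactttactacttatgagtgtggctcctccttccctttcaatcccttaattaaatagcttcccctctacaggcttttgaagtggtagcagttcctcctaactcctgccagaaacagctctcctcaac
STEAP1: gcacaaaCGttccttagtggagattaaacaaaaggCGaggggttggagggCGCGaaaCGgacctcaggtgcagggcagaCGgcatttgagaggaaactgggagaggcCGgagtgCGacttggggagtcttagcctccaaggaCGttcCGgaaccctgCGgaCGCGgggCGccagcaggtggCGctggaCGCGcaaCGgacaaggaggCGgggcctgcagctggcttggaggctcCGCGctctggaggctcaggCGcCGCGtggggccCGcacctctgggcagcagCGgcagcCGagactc
STEAP2: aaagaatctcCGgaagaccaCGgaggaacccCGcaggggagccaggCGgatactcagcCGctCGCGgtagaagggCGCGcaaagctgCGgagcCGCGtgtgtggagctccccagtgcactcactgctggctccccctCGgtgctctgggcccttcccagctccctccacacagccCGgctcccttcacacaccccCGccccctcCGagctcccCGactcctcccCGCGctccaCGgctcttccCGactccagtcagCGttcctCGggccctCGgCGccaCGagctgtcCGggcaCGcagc

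Of the 7 genes, 5 had a promoter in the RefSeq set, which holds 34943 of this length, and *FOLH1* and *MSMB* had none. The *ACP3* promoter holds 2 CpG and is 43.7% G or C. The *STEAP1* promoter holds 27 CpG at 66.7% G or C, and that of *STEAP2* holds 28 at 70.3%, against a median of 14 CpG over all promoters. The promoter of *ACP3* thus lies with the CpG-poor 18.3% of promoters that hold at most 2. So does the second listed start of *STEAP2*, not printed, with 2 CpG at 33.7% G or C. The 6 listed starts of *TRPM8* hold 1 to 5 CpG, and that of *STEAP4* holds 18. A link between base composition and the change of a gene was not tested. Both strands were searched for a short androgen receptor motif (AGAACA, in 14.8% of all promoters), a forkhead motif (TGTTTAC, in 3.42%), a GC box (GGGCGG, in 44.9%) and a TATA box (TATAAA, in 11.6%). The printed windows of *ACP3* and *STEAP1* hold no match, and that of *STEAP2* holds 1 GC box. Of those not printed, the second start of *STEAP2* holds 1 forkhead and 1 TATA match, and *STEAP4* holds 2 GC boxes. For *TRPM8*, 1 start holds 1 TATA match and another 1 androgen receptor match. A match or its lack describes these letters only.

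*ACP3* encodes prostatic acid phosphatase, a phosphatase that luminal cells secrete and that served as an early serum marker of prostate cancer. The files list it under ENSG00000014257.11, a gene on the plus strand at chr3:132036213-132087146 (GRCh37). It was the member that rose. At 72 h *ACP3* was 4.74 and 8.99 TPM in si-NT, 10.78 and 18.46 TPM with siRNA 2, and 12.15 and 12.69 TPM with siRNA 3. At 144 h it was 6.39 and 4.63 TPM in si-NT, 20.64 and 25.83 TPM with siRNA 2, and 31.67 and 17.81 TPM with siRNA 3. All 4 BRG1 depleted libraries of either time lay above all 4 si-NT libraries, and the 4 at 144 h reached levels that only 1 library at 72 h reached.

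The mean level of *ACP3* rose 4.35-fold at 144 h, being 5.51 ± 1.24 TPM (SD, n = 2) in si-NT and 24.0 ± 6.10 TPM (SD, n = 4) after depletion. On the scale of log2(TPM + 1), used for every log2 fold change here, the change at 144 h was 1.92 (SE 0.27, 95% interval 1.32 to 2.52, limma adjusted p = 0.000829). At 72 h the means were 6.87 ± 3.01 TPM (SD, n = 2) and 13.5 ± 3.39 TPM (SD, n = 4), 1.97 times as high after depletion. That change was 0.91 (SE 0.27, 95% interval 0.31 to 1.51) and did not pass limma's test over all genes (unadjusted p = 0.0063, adjusted p = 0.140). It passed when the si-NT libraries of both times were combined, with a log2 fold change of 1.03 (limma adjusted p = 0.0167). That control mixes libraries of 72 h with those of 144 h, which had been split and transfected again. The change at 144 h exceeded that at 72 h by 1.01, which did not pass limma's adjustment over all genes (unadjusted p = 0.0237, adjusted p = 0.355).

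A two-sided exact permutation test of the 4 depleted against the 4 si-NT libraries of both times gave p = 0.0286 for *ACP3* at each time, the smallest this design allows, and 0.171 after Benjamini-Hochberg adjustment over the 12 tests of the 6 genes at 2 times. Its control likewise mixes the times. Scaled to the ERCC spike-ins, the change of *ACP3* at 144 h was 1.55 (limma adjusted p = 0.0248). That scaling moved the median of all tested genes at 144 h to -0.31, and relative to the median *ACP3* stood at 1.86, against 1.90 without it.

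*FOLH1* encodes prostate-specific membrane antigen, a carboxypeptidase on the cell surface that releases glutamate from folate and from neuropeptides. The gene, ENSG00000086205.12, lies on the minus strand at chr11:49166644-49230190 (GRCh37). At 72 h *FOLH1* was 428.42 and 593.51 TPM in si-NT, 409.95 and 596.65 TPM with siRNA 2, and 405.75 and 397.12 TPM with siRNA 3. At 144 h it was 465.48 and 444.67 TPM in si-NT, 421.63 and 443.78 TPM with siRNA 2, and 388.81 and 329.98 TPM with siRNA 3. The groups overlapped at 72 h, where the highest library of each lay within 4 TPM of the other, while at 144 h all 4 depleted libraries lay below both si-NT libraries, the nearest by less than 1 TPM.

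The log2 fold change of *FOLH1* was -0.18 at 72 h (95% interval -0.58 to 0.22, limma adjusted p = 0.728) and -0.21 at 144 h (95% interval -0.61 to 0.19, limma adjusted p = 0.442). Neither passed the test, and the intervals leave room for a decrease of up to 0.61 and an increase of up to 0.22. *FOLH1B*, a near copy of *FOLH1* whose reads may be shared with it, averaged 2.64 TPM over all libraries, with log2 fold changes of -0.15 and -0.14, which also did not pass.

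*STEAP1* encodes a six-transmembrane surface protein that binds haem and is pursued as a target of antibodies. The gene, ENSG00000164647.4, lies on the plus strand at chr7:89783770-89794143 (GRCh37). At 72 h *STEAP1* was 192.71 and 170.66 TPM in si-NT, 175.41 and 196.37 TPM with siRNA 2, and 175.47 and 176.35 TPM with siRNA 3. The values at 144 h were 189.81 and 178.37 TPM in si-NT, 171.24 and 190.2 TPM with siRNA 2, and 164.02 and 152.36 TPM with siRNA 3. The groups overlapped at both times, and both siRNA 3 libraries at 144 h were the lowest of the 12. *STEAP1* had the narrowest intervals of the 6 tested genes, -0.22 to 0.21 around -0.01 at 72 h and -0.34 to 0.09 around -0.12 at 144 h (limma adjusted p = 0.988 and 0.399).

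*STEAP2* encodes a metalloreductase that reduces iron and copper and cycles between the Golgi and the plasma membrane. The gene, ENSG00000157214.9, lies next to *STEAP1* on the plus strand at chr7:89796904-89867451 (GRCh37). At 72 h *STEAP2* was 98.79 and 122.43 TPM in si-NT, 93.21 and 155.22 TPM with siRNA 2, and 109.6 and 91.25 TPM with siRNA 3. At 144 h *STEAP2* was 107.28 and 98.62 TPM in si-NT, 121.27 and 116.77 TPM with siRNA 2, and 108.43 and 75.25 TPM with siRNA 3. The depleted libraries spanned the si-NT libraries on both sides at each time. The log2 fold changes of *STEAP2* were -0.0037 at 72 h (95% interval -0.50 to 0.49, limma adjusted p = 0.998) and 0.01 at 144 h (95% interval -0.48 to 0.50, limma adjusted p = 0.976), and the sign of the latter changed with the scaling (to -0.39 with the spike-ins and -0.02 with either median-of-ratios or quantile scaling).

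*STEAP4*, a metalloreductase of the same family known from adipose tissue and inflammation, lies apart from them on the minus strand at chr7:87900207-87936209 (GRCh37, ENSG00000127954.8). It was between 0 and 0.05 TPM and was listed at 0 in 4 of the 12 libraries, too low for a comparison.

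*TRPM8* (ENSG00000144481.12, plus strand, chr2:234826018-234928166, GRCh37) encodes a calcium-permeable channel whose transcription in prostate cells is known to depend on androgen. At 72 h *TRPM8* was 3.39 and 4.99 TPM in si-NT, 1.48 and 1.58 TPM with siRNA 2, and 2.99 and 1.77 TPM with siRNA 3. At 144 h it was 4.6 and 2.51 TPM in si-NT, 1.87 and 3.07 TPM with siRNA 2, and 3.73 and 2.9 TPM with siRNA 3. All 4 depleted libraries lay below both si-NT libraries at 72 h, and the groups overlapped at 144 h. The log2 fold change of *TRPM8* at 72 h was -0.82 (SE 0.26, 95% interval -1.40 to -0.24), which did not pass limma's test over all genes (unadjusted p = 0.0094, adjusted p = 0.166). At 144 h it was -0.21 (95% interval -0.79 to 0.37, limma adjusted p = 0.606).

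*MSMB* encodes beta-microseminoprotein, one of the most abundant proteins of seminal plasma. It is listed under ENSG00000263639.1 on the plus strand at chr10:51547642-51562515 (GRCh37), and was at the lower edge of detection. At 72 h *MSMB* was 2.24 and 0.96 TPM in si-NT, 0.88 and 0.08 TPM with siRNA 2, and 0.21 and 0.76 TPM with siRNA 3. Its levels at 144 h were 0.17 and 3.3 TPM in si-NT, 0.63 and 0.72 TPM with siRNA 2, and 0.41 and 0.05 TPM with siRNA 3. The gene passed the filter through 2 si-NT libraries alone, so it could enter the test only as a gene that was high in si-NT. At 72 h its depleted libraries lay below both si-NT libraries, while at 144 h the groups overlapped, with the si-NT libraries far apart from each other. The log2 fold changes of *MSMB* were -0.81 and -0.65 and did not pass the test (limma adjusted p = 0.457 and 0.322).

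A further entry of the table, ENSG00000138294.9, has no symbol in the annotation used here but held the same TPM as *MSMB*, to 2 decimals, in 7 of the 12 libraries. Its values at 72 h were 2.24 and 0.96 TPM in si-NT, 0.88 and 1.23 TPM with siRNA 2, and 2.38 and 0.76 TPM with siRNA 3. At 144 h they were 3.17 and 0 TPM in si-NT, 0.63 and 0.72 TPM with siRNA 2, and 0.41 and 0.26 TPM with siRNA 3. In the 5 libraries where the entries differed, 1 held most of the pair's total, and the si-NT libraries at 144 h split in opposite ways.

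Summed over both entries, which was done after the values had been seen, *MSMB* was 4.48 and 1.92 TPM in si-NT at 72 h, and 1.76, 1.31, 2.59 and 1.52 TPM after depletion. At 144 h the sum was 3.34 and 3.30 TPM in si-NT, and 1.26, 1.44, 0.82 and 0.31 TPM after depletion. The si-NT libraries at 144 h then differed by 0.04 TPM, and all 4 depleted libraries of that time lay below all 4 si-NT libraries. The log2 fold change of the sum was -0.54 at 72 h (limma adjusted p = 0.449) and -1.18 at 144 h (95% interval -1.83 to -0.54, limma adjusted p = 0.0141), and with spike-in scaling -1.39 at 144 h (limma adjusted p = 0.0292). The exact permutation test, two-sided and against the si-NT libraries of both times, gave p = 0.0286 for the sum at 144 h. This is the smallest possible for 4 against 4. It was not adjusted for the other tests, and the sum was formed with its values known, so it is a description only. Without si-NT replicate 1 at 144 h, the entry of *MSMB* on its own was at -1.59 at that time. This omission keeps both si-NT libraries through which the entry passed the filter and drops a low one. It leaves 1 si-NT library at 144 h, so the lower value was favoured in advance and says nothing about the sum. Whether the entries share reads cannot be read from TPM.

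**Figure D2:**
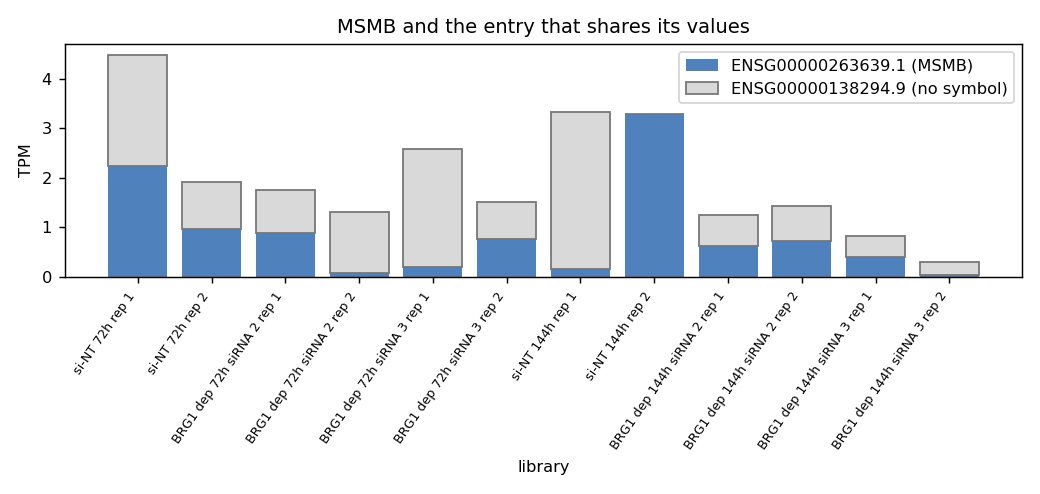
TPM of *MSMB* (blue), with that of the entry without a symbol (grey) stacked on top, in each of the 12 libraries. The split between the entries varies from library to library, whereas the stacked height is 3.34 and 3.30 TPM in the si-NT libraries at 144 h and at most 1.44 TPM in the depleted ones.

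Set side by side, 0 of the 6 tested genes passed limma's test at 72 h, where 1.68% of all tested genes did (1.13% higher and 0.557% lower), and 2 of the 6 had an unadjusted p under 0.05, beside 2339 of all 16337. At 144 h 1 of 6, *ACP3*, passed, where 24.4% of all tested genes did (13.6% higher and 10.8% lower), and 1 of the 6 had an unadjusted p under 0.05, beside 6013 of all. *ACP3* also exceeded a log2 fold change of 1.5, which with the test left 1.1% of all genes. The libraries of depleted and si-NT cells did not overlap for *ACP3* and *TRPM8* at 72 h, as for 23.3% of all tested genes, and for *ACP3* and *FOLH1* at 144 h, as for 48.6%. *MSMB* did not overlap at 72 h either, but its passage of the filter through si-NT alone favours that order. The median log2 fold change of the 6 genes was -0.09 at 72 h and -0.17 at 144 h, beside 0.06 and 0.03 over all tested genes. These medians include *MSMB* (-0.81 and -0.65), whose passage of the filter favours a lower value, so they do not show a shift of the members.

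The change at 144 h differed from that at 72 h for 0 of the 6 genes by limma's test (0.0184% of all genes), with 1 of the 6, *ACP3*, and 1943 of all genes at an unadjusted p under 0.05. Between si-NT at 144 h and at 72 h, 0 of the 6 passed (0% of all genes), with 0 of the 6 and 671 of all genes at an unadjusted p under 0.05. These libraries differ by the split and second transfection as well as by time. With 2 on each side, the lack of calls does not show that nothing changed. The siRNAs differed from each other for 0 of the 6 at 72 h (0.141% of all genes) and 0 of the 6 at 144 h (0.331% of all genes) by limma, and again 0 had an unadjusted p under 0.05, beside 1361 and 2175 of all genes. The log2 differences of siRNA 3 from siRNA 2 ran from -0.30 to 0.39 at 72 h and from -0.46 to 0.33 at 144 h.

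**Figure D3:**
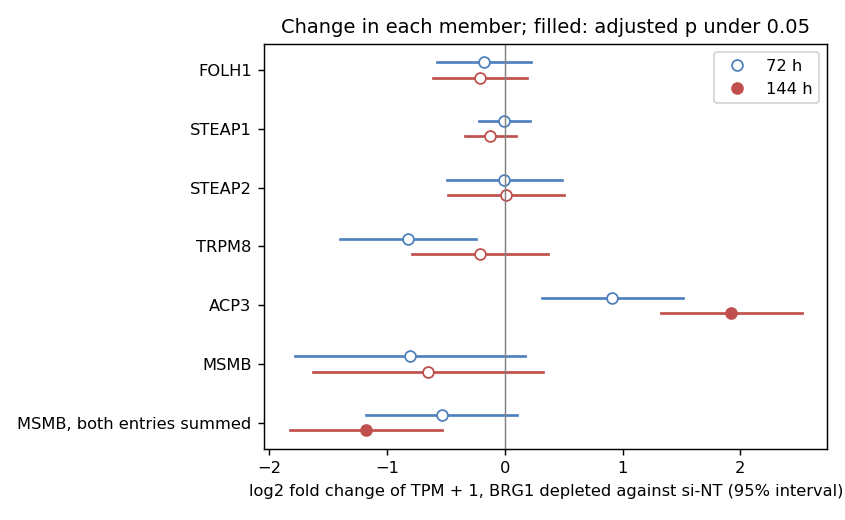
Log2 fold change of TPM + 1 in BRG1 depleted against si-NT libraries (horizontal axis) for the 6 tested genes and for *MSMB* with both entries summed, at 72 h (blue) and 144 h (red). Bars are 95% intervals, and filled points passed an adjusted p of 0.05. *ACP3* at 144 h (1.92) and the summed *MSMB* at 144 h (-1.18) are filled.

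*FOLH1* and *STEAP2* moved together from library to library. In log2(TPM + 1) over the 12 libraries the Pearson correlation of *FOLH1* with *STEAP2* was 0.82, and 0.92 after the group means were removed, as a description of points that share a library and its composition. Among all 6 tested genes this was the closest pair. The ratio of *FOLH1* to *STEAP2* stayed between 3.48 and 4.85, while *FOLH1* itself ranged from 329.98 to 596.65 TPM. *STEAP1* was less close to them, at 0.58 with *FOLH1* and 0.56 with *STEAP2*, and 0.48 and 0.61 after the group means were removed. *ACP3* had a correlation of -0.19 with *FOLH1* over all libraries and 0.78 once group means were removed. With *STEAP2* it had 0.23 and 0.73. Within groups the scarce *ACP3* was thus closer to both than *STEAP1* was.

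**Figure D4:**
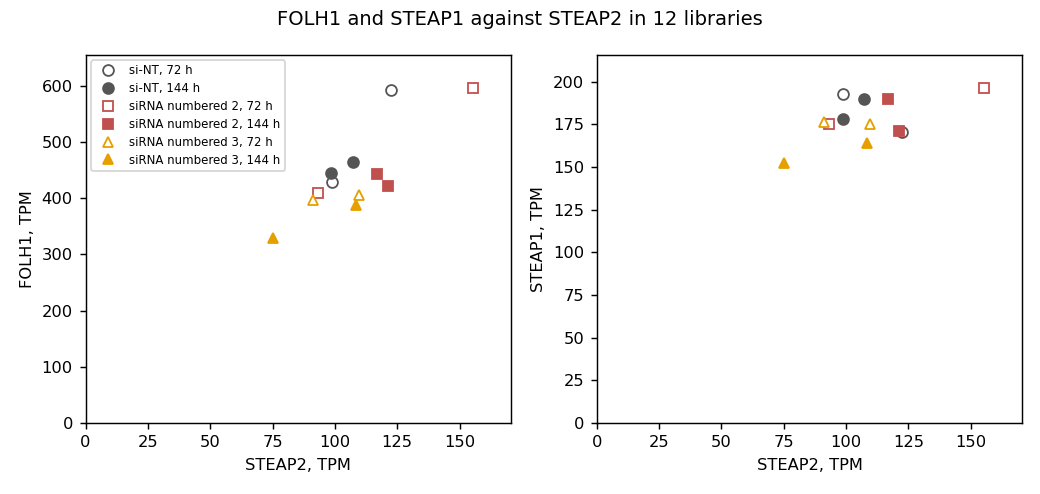
*FOLH1* (left) and *STEAP1* (right) against *STEAP2*, all in TPM on axes from 0, with 1 point per library. Colour and shape give the siRNA, and filled points are 144 h. *FOLH1* follows *STEAP2*, with 1 library of siRNA 2 at 72 h at the upper right (155.22 and 596.65 TPM) and 1 of siRNA 3 at 144 h at the lower left (75.25 and 329.98 TPM).

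Other genes tracked each member as closely. Among genes with a mean of at least 5 TPM, the closest to *FOLH1* over the 12 libraries were *RAD23B* (r = 0.96), *RAB3GAP1* and *DAB2IP*, to *STEAP1* *SMC6* (0.93), *CGREF1* and *SUMO3*, and to *STEAP2* *HIVEP2* (0.96) and *SRPK2*. None of these genes passed limma's test at either time. *TRPM8* was closest to *MLYCD* (0.86), *AACS* and *GIT1*, and the entry of *MSMB* on its own to *NT5C3A* (0.87), *CISD2* and *POLR3F*. The share of that entry in the *MSMB* sum varied from library to library, so its pattern may not be that of the gene. The pattern of *ACP3* was most like that of 2 genes without a symbol, ENSG00000188971.4 (0.98) and ENSG00000247765 (0.97), and of *USP25* (0.97), a ubiquitin-specific protease, which rose by 0.94 at 144 h (limma adjusted p = 0.00111).

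Within 200 kb of the 7 genes the annotation has 92 other genes, of which 16 were tested. At 72 h 0 of these passed limma's test, beside 1.68% of all genes, and at 144 h 5 of 16 passed, 3 higher and 2 lower, beside 24.4% of all genes. *CFAP69*, a cilia and flagella protein gene that begins downstream of *STEAP2* on the same strand, rose at 144 h to 11.98 ± 2.26 TPM (SD, n = 4), where si-NT held 2.41 ± 0.86 TPM (SD, n = 2), with a log2 fold change of 1.94 (limma adjusted p = 0.000949). *CLDN12*, a claudin gene beyond it, rose by 0.78 and *GTPBP10*, a GTPase gene between them, fell by 0.45. *STEAP1* and *STEAP2*, at the other end of this interval, had log2 fold changes of -0.12 and 0.01 at that time, as given above. Near *STEAP4*, *SRI*, which encodes the calcium-binding protein sorcin, rose by 0.47, and near *TRPM8*, *HJURP*, a centromere histone chaperone, fell by 0.89. The tested neighbours of *ACP3*, *DNAJC13* and *ACAD11*, had log2 fold changes of 0.22 and 0.24 and did not pass. *STEAP2-AS1* overlaps *STEAP1* and *STEAP2* on the opposite strand and reached at most 0.7 TPM.

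Relatives and partners of the members were taken from lists of 89 genes, of which 59 were tested. At 72 h 0 rose and 3 fell, and at 144 h 8 rose and 12 fell, 33.9% of those tested beside 24.4% of all genes. The median log2 fold change of the 59 was -0.06 at 72 h and -0.09 at 144 h. With spike-in scaling 9 of the 20 passed at 144 h, 1 higher and 8 lower, and 0 of the 20 changed sign.

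Of the relatives of *FOLH1*, 0 of 5 rose and 2 of 5 fell at 144 h, where 13.6% of all tested genes rose and 10.8% fell. *NAALADL2*, of the same peptidase family, fell at 144 h to 4.15 ± 1.01 TPM (SD, n = 4), where si-NT held 10.1 ± 1.63 TPM (SD, n = 2), with a log2 fold change of -1.12 (limma adjusted p = 0.00337). *TFRC*, the transferrin receptor that shares the fold of FOLH1, fell at 144 h to 56.4 ± 9.86 TPM (SD, n = 4), where si-NT held 114.8 ± 7.01 TPM (SD, n = 2), with a log2 fold change of -1.03 (limma adjusted p = 0.00078). Of genes for folate and glutamate handling, the pathway of FOLH1's substrates, 4 of 7 fell at 144 h and 0 rose, beside the same shares of all genes. Among those that fell were *SHMT2* (-1.05), *GGH* (-0.91) and *SHMT1* (-0.45). Whether so short a list departs from all genes was not tested. *SHMT2*, the mitochondrial serine hydroxymethyltransferase, had also fallen at 72 h, by 0.75 (limma adjusted p = 0.0262).

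*STEAP3*, the metalloreductase of endosomes, was the 1 further STEAP gene tested and had a log2 fold change of -0.42 at 144 h, just outside the limit (limma adjusted p = 0.0549). Of 11 genes for iron and copper handling, *ACO1* rose by 0.55 and *SLC39A14* fell by 0.51 at 144 h, and the other 9 did not pass. Of all tested genes 13.6% rose and 10.8% fell at that time. For the channels related to TRPM8, 0 of 3 tested genes passed at either time, beside 1.68% of all tested genes at 72 h and 24.4% at 144 h. Of 3 further acid phosphatases, *ACP2*, the lysosomal form, rose by 0.59 at 144 h, beside 1.92 for *ACP3*. *MSMP*, the relative of *MSMB*, was not tested because it did not pass the filter.

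Of 19 other surface proteins tested, 3 rose and 3 fell at 144 h, where 13.6% of all tested genes rose and 10.8% fell. *SLC45A3*, the gene for prostein, rose at 144 h to 109 ± 14.5 TPM (SD, n = 4), where si-NT held 40.6 ± 12.4 TPM (SD, n = 2), with a log2 fold change of 1.43 (limma adjusted p = 0.00562), with *CDH1* at 0.91 and *SLC44A4* at 0.87. *TMEFF2*, a transmembrane protein of prostate and brain, fell at both times, by 1.49 at 72 h (limma adjusted p = 0.0182) and by 2.22 at 144 h (limma adjusted p = 0.000256), while *DPP4* fell by 1.22 and *GPR160* by 0.46 at 144 h. *PSCA*, prostate stem cell antigen, fell by 0.82 at 72 h (limma adjusted p = 0.0373) and had a log2 fold change of 0.15 at 144 h, which did not pass.

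Of 10 other secreted products tested, 3 rose and 2 fell at 144 h, where 13.6% of all tested genes rose and 10.8% fell. *KLK4*, a kallikrein protease, rose at 144 h to 704.5 ± 150.7 TPM (SD, n = 4), where si-NT held 182.6 ± 81.9 TPM (SD, n = 2), with a log2 fold change of 1.99 (limma adjusted p = 0.00129), close in size to the 1.92 of *ACP3*. *CLU*, the chaperone clusterin, rose by 1.18 and *SPON2* by 0.68, while *CRISP3* fell by 1.16 and *SPINK1*, a trypsin inhibitor, by 0.86. Both of the genes that fell were scarce and passed the filter through si-NT libraries, *CRISP3* with at most 0.4 TPM and *SPINK1* with at most 1.08 TPM after depletion, so they could enter the test only as genes high in si-NT.

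**Figure D5:**
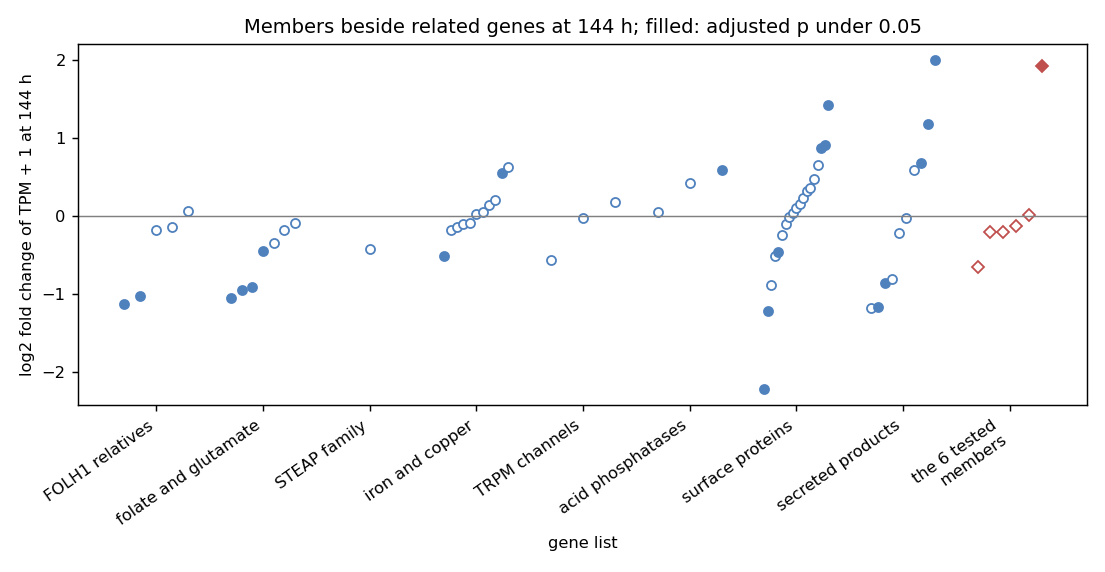
Log2 fold change of TPM + 1 at 144 h (vertical axis) for tested genes of each list (blue circles) and for the 6 tested members (red diamonds), sorted within a list. Filled points passed an adjusted p of 0.05. *ACP3* at 1.92 is the filled diamond, with *KLK4* at 1.99 among the secreted products and *TMEFF2* at -2.22 among the surface proteins.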

How the data were processed

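RNA-seq libraries from a stranded mRNA kit with added ERCC spike-ins were made from 12 LNCaP samples. As the methods state, the authors normalised reads with the spike-ins, aligned them to hg19 (GRCh37) with STAR, counted genes with featureCounts and derived TPM on GENCODE 19. The submitters' processing notes name Trim Galore 0.11.2, FastQC and STAR 2.4.0j. The deposited unit is TPM, from which depth cannot be had, so no count model, counting interval or floor is given. The TPM of each library, spike-ins included, add up to 1000000, so the deposited values hold no spike-in scaling between libraries. Whether counting used strand is not given in the sources used here. The si-NT columns were matched to single samples, and the columns of the *SMARCA4* siRNAs only to their group of treatment and time. The siRNA numbers of the table (2 and 3) differ from those of the titles, and 1 library at 72 h has conflicting siRNA numbers in its labels, so comparisons of siRNAs follow the table.

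TPM was taken to log2 after adding 1, and genes that reached 1 TPM in 2 or more libraries entered limma 3.58.1 in R 4.3.3 (lmFit, eBayes with a trend) in 4 groups sharing 1 spread estimate, or 6 groups for the siRNAs, with Benjamini-Hochberg adjustment over all genes at 0.05. The fit was checked on simulated data. Single genes were compared by exact permutation tests. Python 3.11.15, pandas 2.3.3, NumPy 2.4.6, SciPy 1.17.1 and matplotlib 3.10.9 were used. Gene names and GRCh37 positions came from GENCODE 44 lifted to that build, and promoters from RefSeq on GRCh38.p14, whose coordinates were not combined with the former.

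The members and lists were chosen with earlier results of these data known. Genes named besides the members are those called in a list at either time (at most 5 a list), tested genes within 200 kb of a member that were called or flank *ACP3*, the 3 genes of highest correlation with each member among those of mean TPM of at least 5, and *SMARCA4*. *GPR160* and *PSCA* were called too but lie beyond the 5 genes of their list with the largest change at 144 h. *FOLH1B*, *STEAP3* and *STEAP2-AS1* were added after their values were seen. Genes that fit this rule but are not named are not reported here. Alternatives were a pseudocount of 0.1, other filters, spike-in, median-of-ratios and quantile scaling, no trend, only the libraries of 1 time, combined si-NT libraries, a fold limit, a replicate block and leaving out each library. The summing of the *MSMB* entries was added after seeing the data.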

Additional observations from a re-analysis of the deposited data

Results flagged for a closer look

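In 1 library, siRNA 2 replicate 2 at 72 h, *FOLH1* stood at 596.65 TPM, above the other 3 BRG1 depleted libraries of that time by more than Dixon's 95% critical value allows. The same library held *STEAP1* at 196.37 TPM, apart from its group by the same measure. These are 2 of 14 groups examined, and chance alone sets about 1 in 20 groups apart. *STEAP2* and *ACP3* were also highest in this library among the depleted libraries of 72 h, at 155.22 and 18.46 TPM.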

How the results depend on the processing

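The call of *ACP3* at 144 h held under every alternative run, with log2 fold changes of 1.55 to 2.09 and, with a library left out, 1.73 to 2.12 (limma adjusted p between 0.000104 and 0.0248). The number of members called at 72 h was 0 except for 1, *ACP3*, with the si-NT libraries of both times combined. At 144 h it was 1, but 2 with the *MSMB* entries summed, and 1 to 2 with a library left out. The higher count came without si-NT replicate 1 at 144 h, where *MSMB* alone was at -1.59. That omission leaves 1 si-NT library at 144 h and keeps both libraries through which *MSMB* passed the filter, so it favours this outcome. Without si-NT replicate 1 or 2 at 72 h the change of *ACP3* at that time was 0.51 or 1.31.

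List genes called at 72 h numbered 3, against 7 with median-of-ratios scaling, 5 with quantile scaling, 13 with combined si-NT libraries, and 0 with spike-in scaling, with only the libraries of 72 h or with a log2 fold limit of 1.5. Leaving out a library gave 0 to 4, with 0 without si-NT replicate 2 or siRNA 3 replicate 2 at 72 h and 1 without siRNA 2 replicate 1 at 72 h. At 144 h they numbered 20, against 9 with spike-in scaling and 2 with the fold limit, and 12 (without si-NT replicate 2 at 144 h) to 21 with a library left out. Signs of uncalled changes turned for *STEAP1* at 72 h (0.025 with quantile scaling), *STEAP2* at 72 h (0.044 with combined si-NT) and *STEAP2* at 144 h (-0.020 with median-of-ratios and -0.021 with quantile scaling, -0.39 with the spike-ins, -0.036 with combined si-NT). Leaving out a library gave -0.41 to 0.057 for *FOLH1*, -0.092 to 0.082 for *STEAP1* and -0.17 to 0.15 for *STEAP2* at 72 h, and -0.063 to 0.16 for *STEAP2* and -0.55 to 0.13 for *TRPM8* at 144 h. The causes of these shifts were not tested.

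The deviations of same-numbered replicates were compared over 15 pairs of conditions, with r from -0.23 to 0.30 and 2 pairs over 0.1. Both extremes fell at 72 h, with 0.30 for si-NT with siRNA 2 and -0.23 for siRNA 2 with siRNA 3. Whether libraries of the same number were handled together was not tested. With the replicate block 0 members were called at 72 h and 1 at 144 h. *MSMB* and *TRPM8* were not tested at a mean of at least 5 TPM, nor *MSMB* without si-NT replicate 1 at 72 h or replicate 2 at 144 h. With 2 si-NT libraries a time, 1 of them can move a low gene widely, and TPM does not tell how many reads lie behind such values.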
